A study of Mus musculus with 2 samples.

Results

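Expression of 37 endothelial genes was examined in liver mRNA from 1 control library and 1 iFIRKO library. The genes were taken by symbol from both deposited liver files, which hold 53342 rows and 53241 distinct symbols. They comprised 13 markers of the sinusoidal endothelium, 19 genes shared by endothelial cells more widely and 5 angiocrine factors, which are ligands that endothelial cells send to neighbouring hepatocytes. iFIRKO mice lack the insulin receptor in adipocytes after tamoxifen, because Adipoq-CreERT2, a Cre recombinase that tamoxifen activates and that the adiponectin promoter confines to fat cells, acts on floxed *Insr* alleles. The label gives the control genotype as WT, whereas the study's methods describe control mice with floxed *Insr* and do not mention Cre for them, so effects of Cre and of the deletion cannot be told apart. Male mice of both groups were 7 weeks old, received 100 mg/kg tamoxifen on each of 5 days and were sampled 3 days after the last dose. Neither the labels nor the methods say whether a liver library came from a single mouse or a pool. With 1 library per genotype no difference here has a replicate check, and no p-value is given.

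Liver sinusoidal endothelial cells line the low-pressure capillaries between the portal tracts and the central veins. They are perforated by open fenestrae, rest on almost no basement membrane, and clear waste macromolecules from blood through scavenger receptors. Their survival and fenestrated state depend on vascular endothelial growth factor (VEGF), which hepatocytes release. In return they secrete Wnt ligands and R-spondin 3, which maintain pericentral gene expression in hepatocytes, and bone morphogenetic proteins, which drive hepatocyte hepcidin. Arteries, portal veins and central veins are lined by continuous endothelium, which shares the junction and receptor genes but carries few of the sinusoidal ones.

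The authors deposited the log2 of a normalized read count, which was returned to the linear scale, and levels below are normalized reads. The libraries held 42003900 (control) and 41579630 (iFIRKO) normalized reads, or an estimated 21138292 and 20652476 read pairs. Fold changes are log2 ratios of iFIRKO over control after adding 4.18 normalized reads to each value, which understates the change of low genes. Each is followed where useful by a 95% exact interval on the estimated read pairs without that addition, which covers counting error only and compares these 2 libraries and not the genotypes. A gene was counted as higher or lower when it differed by more than 1.5-fold, the study's own threshold, which is 0.58 on the log2 scale. All 37 genes passed the minimum of 41.8 normalized reads in 1 or both libraries, as did 13400 genes in all. *Insr* itself, deleted in adipocytes and not in liver cells, gave 4246 normalized reads for control and 3692 for iFIRKO liver.

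Endothelial genes were more often lower than higher in the iFIRKO library. Of the 37 genes, 8 were more than 1.5-fold lower, against 7.28% of all genes tested, and 1 was more than 1.5-fold higher, against 4.46%. Among the 10161 genes whose mean level lay in the range of these 37, from 57.6 to 2422 normalized reads, the shares were 6.46% lower and 3.81% higher. The median log2 fold change was -0.32 over the 37 genes and 0.008 over all genes tested. Log2 fold changes were under 0 for 28 of the 37 genes and for 48.7% of all genes tested. The counting interval lay wholly below 0 for 23 of the 37 genes, against 17.2% of the genes in that range, and wholly above 0 for 2, against 16.8%. The differences were small in size, since 28 of the 37 genes stayed within 1.5-fold and none reached 2-fold. Bulk liver RNA cannot tell fewer endothelial cells from less of these RNAs per cell.

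**Figure D1:**
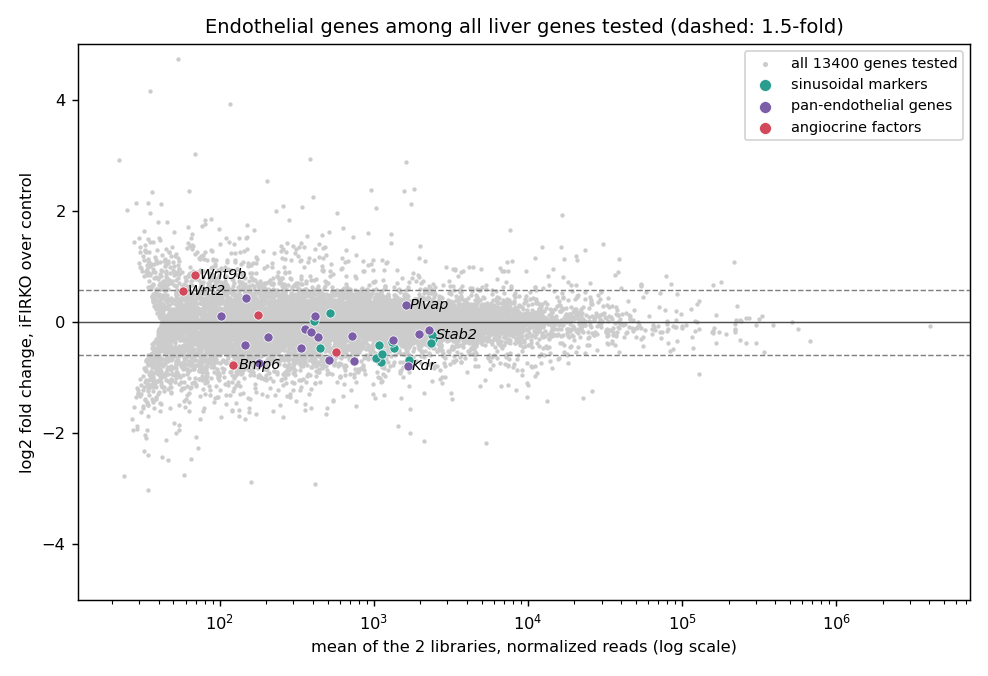
Log2 fold change (iFIRKO over control) against the mean of both libraries in normalized reads (log axis) for all 13400 genes tested, with the 37 endothelial genes in colour and dashed lines at 1.5-fold. The coloured points of the sinusoidal and pan-endothelial groups lie mostly between 0 and the lower dashed line, and *Wnt9b* is the only endothelial gene above the upper one.

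The sinusoidal markers had a median log2 fold change of -0.42, with 11 of 13 under 0, 3 lower (23.1%) and 0 higher. Of all genes tested, 48.7% were under 0, 7.28% were lower and 4.46% were higher. Their summed level was 19667 normalized reads for control and 14780.1 for iFIRKO, a log2 ratio of -0.41 (interval -0.46 to -0.37). All 13 were above the expression minimum in each library, so the defining markers of sinusoidal endothelium were present in both.

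Among the scavenger receptors, *Stab2* (stabilin-2, which binds hyaluronan) reached 2585 (control) and 2203 (iFIRKO) normalized reads, a log2 fold change of -0.23 (interval -0.35 to -0.11). *Stab1*, its relative that is also made by macrophages, had 2673 and 2172, a log2 fold change of -0.30. A larger difference was that of *Fcgr2b*, the inhibitory Fc receptor that removes small immune complexes, with 2072 and 1286 normalized reads and a log2 fold change of -0.69 (interval -0.83 to -0.54). The intervals of *Fcgr2b* and of the stabilins did not overlap, so these differences were unequal beyond counting error. *Lyve1*, another hyaluronan receptor, had 522 and 375 normalized reads, a log2 fold change of -0.47. *Clec4g*, the C-type lectin LSECtin, had 1576 and 1133, also -0.47 (interval -0.63 to -0.32).

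*Gpr182*, an endothelial receptor that takes up chemokines (chromosome 10, 127747276 to 127751732), had the lowest log2 fold change of the sinusoidal markers at -0.72 (interval -0.90 to -0.55), with 1387 normalized reads in control and 839 in iFIRKO. *Flt4*, which encodes VEGF receptor 3, was the remaining lower gene of this group, at 1254 and 803 (-0.64). *Oit3*, a zona pellucida domain protein used as a marker of these cells, had 1227 and 914 normalized reads (-0.42). *Ehd3*, which acts in endocytic recycling, had 2661 and 2045 (-0.38), and *Dnase1l3*, which encodes a secreted DNase, had 1471 and 1154 (-0.35). These 3 genes stayed within 1.5-fold, with intervals wholly below 0.

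The transcription factor genes of the sinusoidal programme lay on either side of 0. *Maf* was at 1342 normalized reads in the control and 899 in the iFIRKO library, and its log2 fold change of -0.58 (interval -0.75 to -0.40) fell just short of the threshold. *Gata4*, which keeps the sinusoidal endothelium from turning into continuous endothelium, had 491 and 547, a log2 fold change of 0.16 whose interval (-0.10 to 0.41) held 0. *F8*, the gene of coagulation factor VIII, had 406 and 409 normalized reads (0.01, interval -0.28 to 0.29). These were the only sinusoidal markers with a log2 fold change above 0, and that of *F8* was under 0 with median-ratio scaling and with a total that left out the 20 most abundant genes.

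**Figure D2:**
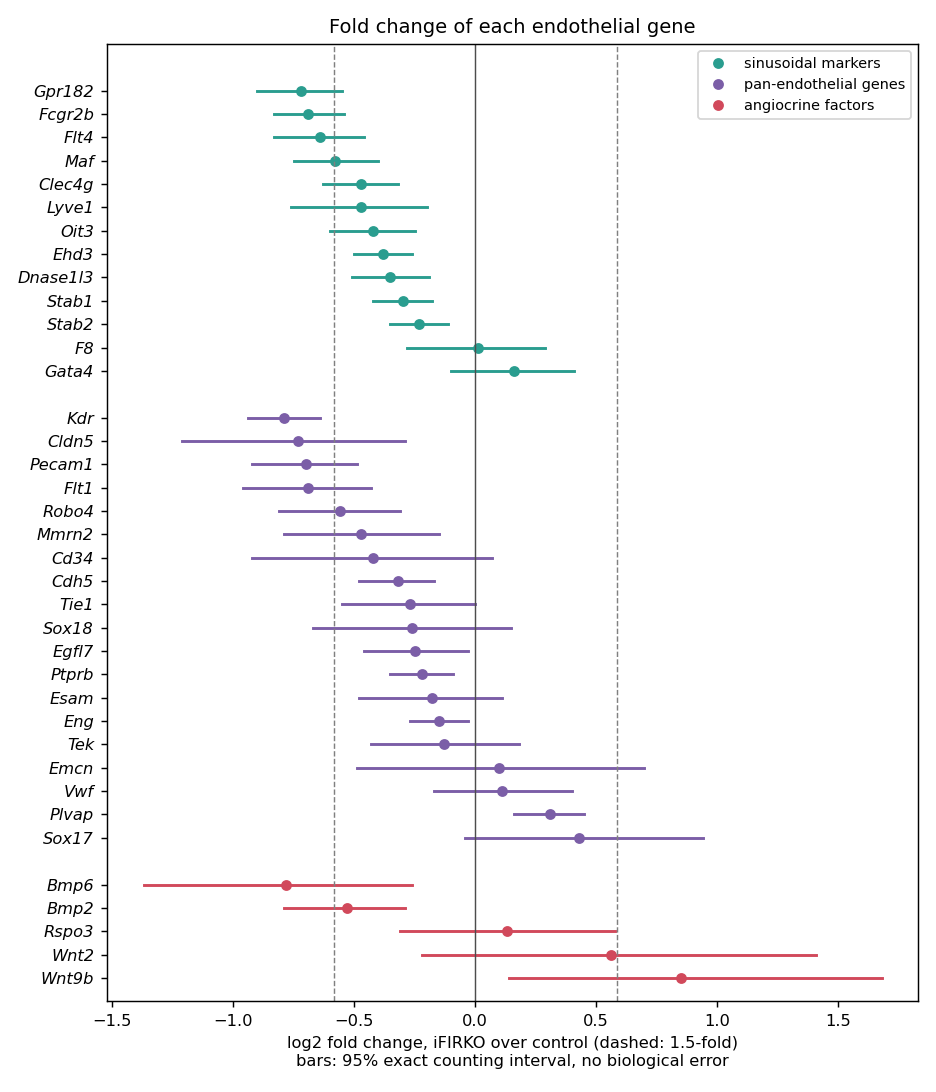
Log2 fold change (iFIRKO over control) of each of the 37 genes, by group, with 95% exact counting intervals as bars and dashed lines at 1.5-fold. In the sinusoidal group 11 of 13 intervals lie wholly below 0, in the pan-endothelial group 10 of 19 lie below and that of *Plvap* above, and the 5 angiocrine factors lie on both sides.

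The 19 pan-endothelial genes had a median log2 fold change of -0.26, with 15 under 0, 4 lower (21.1%) and 0 higher. Of all genes tested, 48.7% were under 0, 7.28% were lower and 4.46% were higher. Their summed level was 15405 normalized reads for control and 12739 for iFIRKO, a log2 ratio of -0.27 (interval -0.32 to -0.23). This group was more mixed than the sinusoidal one, with log2 fold changes from -0.79 to 0.43.

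The 3 VEGF receptor genes were each more than 1.5-fold lower. *Kdr* encodes VEGF receptor 2, the main signalling receptor for VEGF-A, and lies on the reverse strand of chromosome 5 of GRCm38 from 75932827 to 75978458. It gave 2099 normalized reads for control and 1215 for iFIRKO, which is a log2 fold change of -0.79 (interval -0.94 to -0.64), the lowest of the 37 genes. *Flt1* encodes VEGF receptor 1, which mainly traps VEGF-A, and lies on the same strand of chromosome 5 from 147561604 to 147726011. It had 633 and 391 normalized reads, a log2 fold change of -0.69 (interval -0.96 to -0.43). With *Flt4* (-0.64, interval -0.83 to -0.46), described above, the 3 genes had summed levels of 3986 and 2409.5 normalized reads, a log2 ratio of -0.73 (interval -0.83 to -0.62), a grouping made after their values were seen.

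Promoters of *Kdr* and *Flt1* are shown because both genes were lower and both lie in the RefSeq promoter table, which matched 20 of the 37 genes on GRCm38.p6. Each run ends before the first annotated exon of GENCODE M21, and the windows of *Fcgr2b* and *Flt4*, next in size of fold change among the genes in the table, held 203 and 250 exonic bases among the 250 upstream of the start and are not shown. Capitals mark AGGAAG, a core recognised by ETS factors, searched on both strands with AGATAA for GATA factors and ACAATG for SOX factors. The runs are written 5′ to 3′ on the reverse strand, at chr5:75978459-75978705 for *Kdr* and chr5:147726012-147726261 for *Flt1*.
Kdr: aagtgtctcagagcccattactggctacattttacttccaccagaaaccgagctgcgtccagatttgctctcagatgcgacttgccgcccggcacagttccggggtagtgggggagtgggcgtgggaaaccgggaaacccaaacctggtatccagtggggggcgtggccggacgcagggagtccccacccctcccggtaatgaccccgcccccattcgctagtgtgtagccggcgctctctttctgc
Flt1: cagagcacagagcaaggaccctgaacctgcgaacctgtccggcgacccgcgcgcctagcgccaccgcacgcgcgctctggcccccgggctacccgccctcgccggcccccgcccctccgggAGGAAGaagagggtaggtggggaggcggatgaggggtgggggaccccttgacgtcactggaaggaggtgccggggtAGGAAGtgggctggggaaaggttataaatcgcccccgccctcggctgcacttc
The whole RefSeq window of *Flt1*, which runs on past the start of the gene, held 2 matches to AGGAAG and that of *Kdr* held 0, and neither held AGATAA or ACAATG. Over the 22 windows of the 20 matched genes, 54.5% held AGGAAG, against 35.4% of all 32851 windows. AGATAA was in 4.55% of the endothelial windows and 11.2% of all windows, and ACAATG was in 4.55% and 12.6%. These are counts of letters in short windows and do not show binding.

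All 4 junction and adhesion genes had log2 fold changes under 0, and *Pecam1* and *Cldn5* were more than 1.5-fold lower. *Pecam1*, the adhesion molecule CD31 that leukocytes and platelets also carry, reached 919 (control) and 564 (iFIRKO) normalized reads, a log2 fold change of -0.70 (interval -0.92 to -0.49). *Cldn5*, a tight junction claudin, had 224 and 133 (-0.73), with a wide interval from -1.21 to -0.29 at this lower level. *Cdh5*, which encodes VE-cadherin, the adherens junction protein used to define endothelium, had 1474 and 1178 normalized reads, a log2 fold change of -0.32 (interval -0.48 to -0.17). The intervals of *Kdr* and *Cdh5* did not overlap, so the difference of *Kdr* was larger than that of *Cdh5* beyond counting error. *Esam*, another junction protein, had 416 and 367 (-0.18), and its interval of -0.48 to 0.11 held 0.

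The angiopoietin receptor genes, their partners and *Eng* had log2 fold changes between -0.27 and -0.13. *Tek*, the receptor TIE2, was at 373 normalized reads in the control and 341 in the iFIRKO library (-0.13, interval -0.43 to 0.18), and *Tie1*, its orphan partner, had 475 and 393 (-0.27). *Ptprb*, the phosphatase VE-PTP that dampens TIE2, had 2095 and 1799 (-0.22, interval -0.35 to -0.09). *Eng*, endoglin, a co-receptor for BMP9, was among the most abundant endothelial genes at 2389 and 2153 normalized reads, with a log2 fold change of -0.15 (interval -0.27 to -0.03). None of these 4 genes passed the 1.5-fold threshold.

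*Robo4*, an endothelial roundabout receptor, gave 672 normalized reads for control and 454 for iFIRKO, and its log2 fold change of -0.56 lay just inside the threshold. *Mmrn2*, a matrix protein that binds VEGF-A, had 393 and 283 (-0.47). *Egfl7*, a secreted endothelial protein whose gene hosts miR-126, had 785 and 661 (-0.25). In GENCODE M21 the exons of *Egfl7* share 9.41% of their length with other genes on its own strand and 3.41% on the other, so its reads may include theirs.

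Genes listed for continuous or larger vessels lay on both sides of 0. *Plvap*, a component of the diaphragms of fenestrae and caveolae (chromosome 8, 71497765 to 71511752), reached 1447 (control) and 1789 (iFIRKO) normalized reads, a log2 fold change of 0.31 (interval 0.16 to 0.45). It was within 1.5-fold, and besides *Wnt9b* it was the only endothelial gene whose interval lay wholly above 0. *Vwf*, von Willebrand factor, had 398 and 431 (0.11, interval -0.17 to 0.40), and *Emcn*, endomucin, had 97.5 and 105 (0.10). *Sox17*, an arterial transcription factor, had 125 and 170.2 (0.43, interval -0.04 to 0.94), although 16.8% of its exon length is shared with a gene on the opposite strand. *Sox18*, its close relative, had 225 and 187 (-0.26), and *Cd34*, which progenitor and stromal cells also carry, had 168 and 124 (-0.42), and both intervals held 0. Over the 8 genes so listed, the 6 of this paragraph with *Cldn5* and *Robo4*, the median log2 fold change was -0.08, with 4 genes on each side of 0. Their summed log2 ratio was opposite in sign, at 0.02 (interval -0.08 to 0.11). *Plvap* held the most reads of this sum, 1447 of 3355 in control and 1789 of 3393 in iFIRKO, so the sum largely follows that gene. As a component of fenestral diaphragms *Plvap* is not confined to continuous endothelium, so neither is the list. The difference from the sinusoidal list was not tested, since there is 1 library per group.

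**Figure D3:**
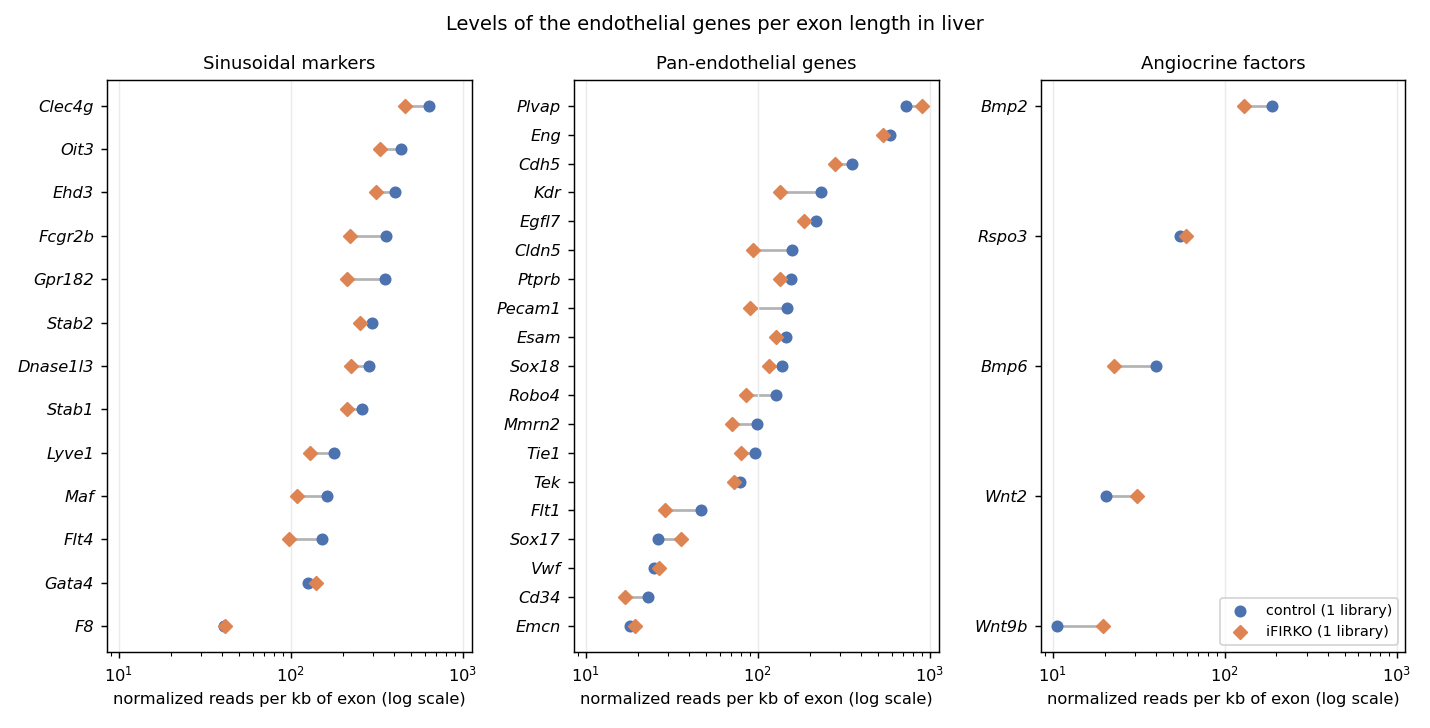
Normalized reads per kb of exon (log axis) of each gene in the control library (circles) and the iFIRKO library (diamonds), by group and ordered by the control level. *Plvap* is the highest and moves to the right in iFIRKO, most sinusoidal markers move to the left, and the Wnt ligands lie at the low end.

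Levels of different genes were compared per kb of exon. In the control library *Plvap* was highest at 728 normalized reads per kb, followed by *Clec4g* at 640.1, *Eng* at 590.3, *Oit3* at 440 and *Ehd3* at 406. In the iFIRKO library the order of the first 5 was *Plvap* (901), *Eng* (532), *Clec4g* (460.2), *Oit3* (328) and *Ehd3* (312). *Gata4* climbed furthest in rank, from 24 to 13, and *Cldn5* dropped furthest, from 17 to 22. The level of *Gata4* went only from 126 to 140.1 normalized reads per kb, and its fold change interval held 0. A rank also moves when other genes change. With the longest annotated transcript as the length, *Clec4g* ranked 1 and *Plvap* 2 in the control library, *Gata4* moved from 22 to 16, and *Cldn5* moved from 21 to 23, less far than *Kdr*, from 9 to 13. At the low end *Wnt9b* had 10.6 and 19.7 normalized reads per kb.

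Of the 5 angiocrine factors *Wnt9b* was higher, *Bmp6* was lower and 3 were within 1.5-fold. Their median log2 fold change was 0.13. The summed log2 ratio of all 5 was opposite in sign to the median, at -0.28 (interval -0.47 to -0.10), with *Bmp2* holding the most reads. *Wnt9b*, a ligand of central vein endothelium on chromosome 11 from 103727364 to 103749821, was at 47.7 normalized reads in the control and 89.2 in the iFIRKO library, for a log2 fold change of 0.85 (interval 0.14 to 1.68). It was the only endothelial gene counted as higher, and it rests on an estimated 24 and 44 read pairs. With a pseudocount of 41.8 normalized reads its log2 fold change was 0.55 and no longer past the threshold, and at a minimum of 209 normalized reads it was not tested. *Wnt2*, made by central vein and pericentral sinusoidal endothelium, had 45.7 and 69.5 (0.56, interval -0.22 to 1.41), from 23 and 34 read pairs. *Rspo3*, R-spondin 3, which enhances Wnt signals around the central vein, had 169 and 185 (0.13, interval -0.31 to 0.58), and 13.1% of its exon length is shared with a gene on the opposite strand. Summed after their values were seen, the 3 genes had 262 and 344 normalized reads, a log2 ratio of 0.39 (interval 0.06 to 0.73).

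*Bmp6*, the sinusoidal ligand that is a main inducer of hepcidin (chromosome 13, 38345107 to 38500302), gave 155 normalized reads for control and 88.8 for iFIRKO, which is a log2 fold change of -0.78 (interval -1.37 to -0.26). *Bmp2*, which also acts on hepcidin, had 669 and 461 (-0.53, interval -0.79 to -0.29). Their summed log2 ratio, also taken after the values were seen, was -0.58 (interval -0.81 to -0.36). *Bmp2* was within 1.5-fold and *Bmp6* was lower. *Bmp6* is also listed among the genes that other liver cells express.

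Hepatocyte genes known to respond to these ligands were counted as lists. Of 14 hepatic Wnt target genes 13 were tested, with 0 higher, 1 lower and a median log2 fold change of 0.03. The summed log2 ratio over the list was -0.36 and so differed in sign. *Cyp2e1* held the most reads of that sum, 98549.6 of 177145 in control and 68611 of 138046 in iFIRKO. Counting intervals lay wholly below 0 for 4 of the 13 tested genes and wholly above 0 for 2. The share lower, 7.69%, was near the 7.28% of all genes tested. *Glul* (glutamine synthetase) reached 26414 (control) and 27001 (iFIRKO) normalized reads (0.03), and *Oat* (ornithine aminotransferase) had 25882 and 22784 (-0.18). *Axin2*, a general feedback target of Wnt signalling, had 285 and 402 (0.49, interval 0.19 to 0.82). *Tbx3* had 929 and 1201 (0.37, interval 0.19 to 0.55), and *Sp5*, at 9.94 and 34.2, was under the expression minimum. *Cyp1a2* had 19255 and 12125 (-0.67) and *Cyp2e1* had 98549.6 and 68611 (-0.52), and both cytochrome P450 genes also answer to other regulators.

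Of 8 hepatic targets of BMP and SMAD signalling, 1 was higher and 1 was lower, 12.5% each, against 4.46% and 7.28% of all genes tested. Log2 fold changes were above 0 for 7 of them and under 0 for 1, with a median of 0.16. The summed log2 ratio was 0.25 (interval 0.18 to 0.31). *Hamp*, the hepcidin gene, was at 1785 normalized reads in the control and 2792 in the iFIRKO library, for a log2 fold change of 0.64 (interval 0.52 to 0.77), opposite in sign to *Bmp6* and *Bmp2*. *Smad9* had 274 and 171 (-0.67), *Id3* had 1143 and 1415 (0.31) and *Id2* had 3177 and 3236 (0.03). Hepcidin also responds to iron and to inflammation, and no relation between ligand and target was tested.

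**Figure D4:**
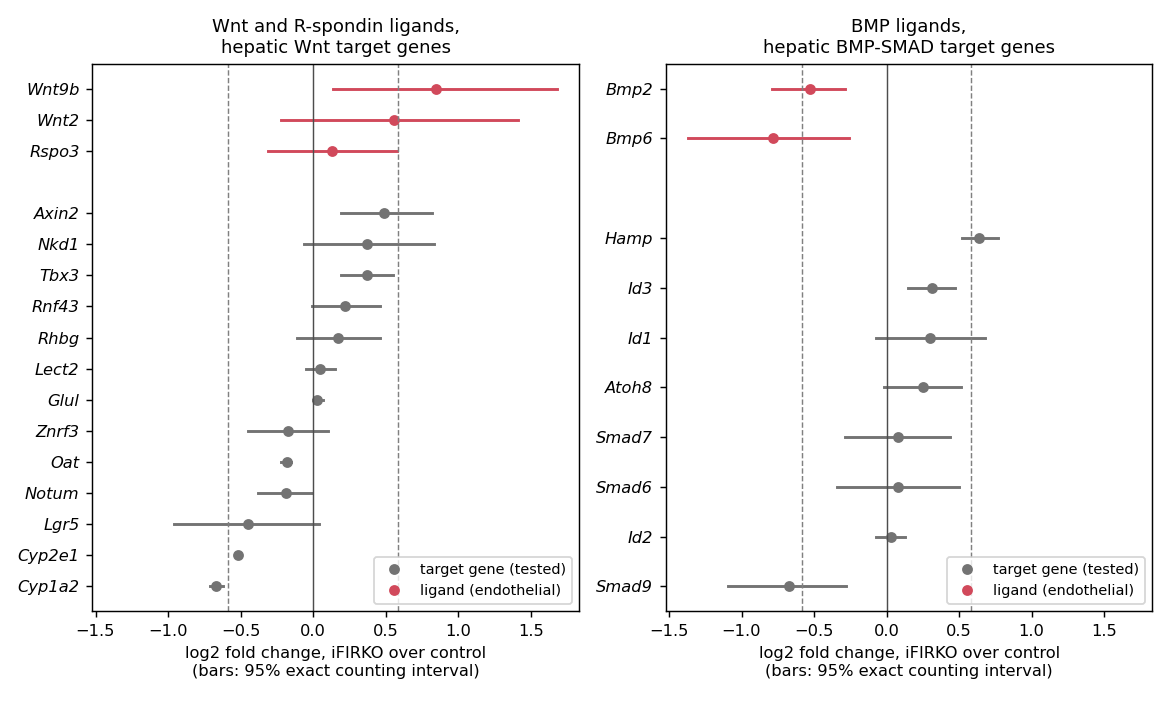
Log2 fold change (iFIRKO over control) of the endothelial ligands (red) and of tested hepatic target genes (grey), with 95% exact counting intervals as bars and dashed lines at 1.5-fold. *Wnt9b* lies above 0, the intervals of *Wnt2* and *Rspo3* hold 0, both BMP genes lie below 0 and *Hamp* lies above it.

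Other genes of the VEGF, angiopoietin and Notch pathways were mostly within 1.5-fold. Of 26 such genes 19 were tested, of which 1 was lower and 0 were higher, with a median log2 fold change of -0.03. The share lower was 5.26%, against 7.28% of all genes tested. *Vegfa*, the VEGF ligand that hepatocytes make, gave 10830.0 normalized reads for control and 7574 for iFIRKO, which is a log2 fold change of -0.52 (interval -0.58 to -0.46). *Dll4*, the endothelial Notch ligand, was the lower gene at 249 and 156 (-0.66, interval -1.09 to -0.24). *Vegfd* had 32.6 and 47.7 (0.50, interval -0.37 to 1.61). *Nrp1*, the VEGF co-receptor neuropilin-1, had 1595 and 1587 (-0.01, interval -0.15 to 0.14), an interval that did not overlap those of the 3 VEGF receptor genes. *S1pr1*, the endothelial sphingosine-1-phosphate receptor, had 2503 and 2322 (-0.11). *Angpt1*, *Angpt2*, *Apln* and *Aplnr* were under the expression minimum in both libraries.

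A further list of 26 endothelial genes outside the 37 was counted in the same way. Of its 24 tested genes 22 had a log2 fold change under 0, 2 were lower and 0 higher, and the median was -0.39. The share lower, 8.33%, was near the 7.28% of all genes tested. *Ecscr*, an endothelial surface protein, reached 138 (control) and 75.6 (iFIRKO) normalized reads (-0.84), and *Tal1*, a blood and endothelial transcription factor, had 75.2 and 48.3 (-0.60, interval -1.45 to 0.13). *Mrc1*, the mannose receptor of sinusoidal endothelium and macrophages, had 2276 and 1635 (-0.48). *Ltbp4*, a TGF-β binding protein, had 1865 and 1478 (-0.33), and *Adgrf5*, an adhesion receptor, had 1301 and 897 (-0.53). *Erg*, an ETS factor that defines endothelial identity, had 198 and 187 (-0.08, interval -0.50 to 0.35).

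Markers of other liver cells were counted beside these values. All 12 Kupffer cell markers had log2 fold changes under 0 and 9 were lower, with a median of -0.62 and summed levels of 43999 and 28379.8 normalized reads. *Cd5l* had 9323 and 5401 (-0.79), *Clec4f* 8728 and 5677 (-0.62), *Csf1r* 4938 and 3561 (-0.47), *C1qa* 4584 and 2777 (-0.72) and *Cd68* 797 and 399 (-0.99). Of 12 leukocyte markers 7 were tested and 6 were lower, with a median of -1.30 and summed levels of 6465 and 3831 normalized reads, most of it *Lyz2* at 4746 and 3048. *Ptprc*, the common leukocyte antigen, had 980.3 and 514 (-0.93), *S100a8* 117 and 32.2 (-1.74), *S100a9* 228 and 64.7 (-1.75) and *Cd79a* 113 and 17.1 (-2.46). Of the 37 genes, 14 were listed as also expressed by macrophages, B cells or other liver and blood cells. Of these 14, 10 had log2 fold changes under 0, among them *Stab1*, *Fcgr2b*, *Maf*, *Pecam1* and *Bmp6*. The 4 above 0 were *Gata4*, *F8*, *Vwf* and *Plvap*, which include both sinusoidal markers above 0. The list may be incomplete. Without those 14 the median over the remaining 23 was -0.32, with 4 lower (17.4%) and 1 higher (4.35%). The share higher was near that of all genes tested. The 7 sinusoidal markers that remain, *Stab2*, *Clec4g*, *Oit3*, *Gpr182*, *Flt4*, *Ehd3* and *Dnase1l3*, had a median of -0.42 and all 7 intervals lay wholly below 0. Other cells may also express some of these 7, which was not tested.

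Stellate cells are the pericytes of the sinusoid. Of 12 stellate markers tested, 0 passed the threshold in either direction, against 7.28% lower and 4.46% higher of all genes tested. Their median was 0.10, with summed levels of 17600.5 and 18269.7 normalized reads. *Dcn* had 5518 and 5740.1 (0.06), *Ecm1* 3629 and 3472 (-0.06) and *Col3a1* 2598 and 2919 (0.17), while *Hand2* (0.43), *Lrat* (0.42) and *Col1a1* (0.31) had the larger fold changes. The 10 hepatocyte markers had a median of -0.06 with 1 lower, *Apoa1* at 168382 and 87599.7. The 5 tested cholangiocyte markers had a median of -0.23 with 0 lower, and all 5 were under 0. The summed log2 ratio of the cholangiocyte list was -0.21 (interval -0.33 to -0.09). Of 6 platelet and megakaryocyte markers 3 were tested, *Itga2b* (-0.61), *Ppbp* (-0.46) and *Pf4* (0.14), with summed levels over the list of 315 and 237 normalized reads. Among lymphatic markers *Ccl21a* had 52.9 and 29.8, *Pdpn* 139 and 105 (-0.40), and *Mmrn1* was under the minimum, while *Prox1* (4615 and 4293) is also a hepatocyte gene and *Reln* a stellate one. The part of these other cells in the endothelial values was not tested beyond leaving out the shared genes.

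**Figure D5:**
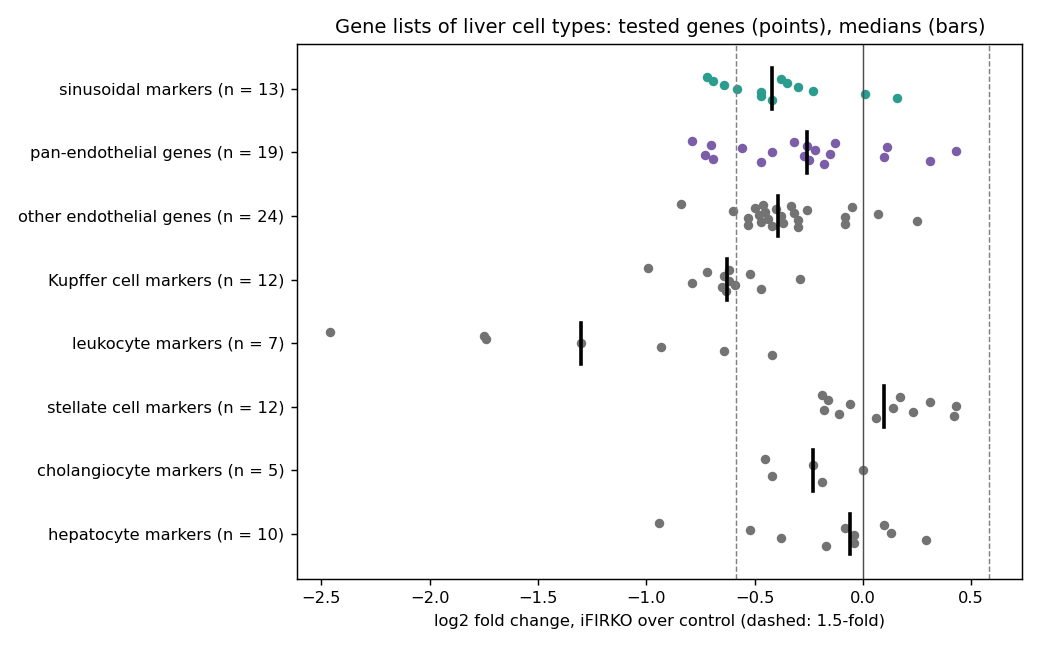
Log2 fold changes (iFIRKO over control) of tested genes (points) and their medians (black bars) in the sinusoidal and pan-endothelial groups and in lists of other endothelial genes and other liver cell types, with dashed lines at 1.5-fold. The endothelial medians, -0.42, -0.26 and -0.39, lie between those of the Kupffer cell list (-0.62) and the stellate cell list (0.10). The cholangiocyte median (-0.23) lies near the pan-endothelial one.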

How the data were processed

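Stranded mRNA libraries of liver total RNA from 1 control and 1 iFIRKO sample were sequenced on an Illumina NovaSeq instrument. The authors deposited, for each library, normalized read counts by gene symbol as log2 values, low ones being listed at 0 (62.2% and 62.1% of rows). The genome build is mm10 per the submitters' processing notes in the labels, and the aligner, the counter and whether strand was used are not given in the sources used here, so overlapping and antisense genes are uncertain. The commonest linear low value, 1.9871 normalized reads in control and 2.0133 in iFIRKO, was taken as 1 read pair. Only 49.0% of values under 50 were whole pairs within 0.05 in each library, so the depths and the exact Clopper-Pearson intervals are estimates, and reads are not independent molecules. The expression minimum was a CPM of 1 (41.8 normalized reads) in at least 1 library, and the pseudocount was a CPM of 0.1. No fold change was given where a library held 3 or fewer read pairs. The code was tested on simulated data. Exon lengths and positions came from GENCODE M21 and promoters from RefSeq on GRCm38.p6, the same assembly as mm10.

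The genes and lists were chosen with earlier results of these data known. All 37 genes are named, with up to 3 genes by level and 3 by fold change in each other list, and other names were chosen after their values were seen. Groups came from the sample labels. Alternatives were other pseudocounts, minimums, scalings, a fold of 2, summed duplicate symbols, leaving out shared genes and, added after seeing the data, leaving out genes with shared exons. Scripts ran in Python 3.11.15 with scipy 1.17.1, pandas 2.3.3, numpy 2.4.6 and matplotlib 3.10.9.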

Additional observations from a re-analysis of the deposited data

How the results depend on the processing

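The directions of the sinusoidal and pan-endothelial groups did not change under any alternative run, though not every alternative could change them. The median log2 fold change stayed between -0.43 and -0.41 for the sinusoidal markers, between -0.27 and -0.23 for the pan-endothelial genes and between -0.36 and -0.31 for all 37 genes. Only other pseudocounts, scalings and leaving out genes that other cells express could move the sinusoidal median. Its markers passed every minimum and none had shared exons. The pan-endothelial median could also move with a minimum of a CPM of 5 or without genes with shared exons. A fold of 2 bears on the counts alone. Of 326 values of single genes, 0 left their counting interval, and 1 gene changed sign, *F8*, from 0.01 to just under 0 with median-ratio scaling and with a total without the 20 most abundant genes. Other minimums and summed duplicate symbols leave the fold change of a single gene as it is, so those values could not leave their intervals. Only the other pseudocounts and scalings bear on that count. With a minimum of a CPM of 5 (209 normalized reads) 30 genes were left, and the median of the angiocrine factors, of which *Bmp2* alone was left, reversed from 0.13 to -0.53. Their summed log2 ratio moved from -0.28 to -0.53 there, with 0 genes higher and 7 lower. The 1 higher gene, *Wnt9b*, was no longer past the threshold with a pseudocount of a CPM of 1, which left 0, and a plain ratio gave 2. With a fold above 2, 0 genes were lower and 0 higher. Median-ratio scaling and a total without the 20 most abundant genes gave 9 lower genes in place of 8. Without the 14 genes listed as expressed by other cells, 4 were lower and the pan-endothelial summed log2 ratio moved from -0.27 to -0.39. *Bmp6* was among those left out. The angiocrine median moved from 0.13 to 0.35 there and the angiocrine summed log2 ratio from -0.28 to -0.21. Without the 3 genes with shared exons (*Egfl7*, *Sox17* and *Rspo3*), an alternative added after seeing the data, the angiocrine median was 0.01. Over all genes tested, the number lower was 976, against 576 with the larger pseudocount, 440 with the minimum of a CPM of 5, 2620 with no minimum and 267 with a fold above 2, and the number higher was 597, against 371, 288, 1960 and 209. No paired analysis was possible because there is 1 library in each group. Depth limits *Wnt2* and *Wnt9b* most, whose intervals are the widest of the 37 genes.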
